A study of Mus musculus with 12 samples.

Results

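Testis RNA was compared between 3 libraries labelled busulfan plus L.J. at 10 mg/kg and 3 libraries labelled L.J. alone at 10 mg/kg, which are 6 of the 12 libraries of the series. The mice were of the outbred strain ICR and 8 weeks old in every group. The other 6 libraries, 3 labelled busulfan and 3 labelled control, carry no L.J. label. They are used below to set the comparison beside the same one made without it. They also enter the gene filter, the scalings and the fits of all 12 libraries. Both groups of the comparison share L.J., so the labelled difference between them is busulfan. Busulfan is an alkylating drug that crosslinks DNA and kills dividing germ cells. L.J. is not explained in the labels, and the series text speaks of FMT without saying how they are related. How much busulfan was given, and how long before sampling, is not stated in the sources used here. Nothing in the labels says that the libraries came from separate animals, so the p-values measure only the spread between these samples.

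In the testis, spermatogonia divide along the wall of the seminiferous tubule, spermatocytes pass through meiosis, and round spermatids lengthen into sperm while protamines replace the histones of their chromatin. Sertoli cells nurse the germ cells and seal the tubule with the blood-testis barrier, and Leydig cells between the tubules make testosterone. Busulfan is used in mice to empty the tubules of germ cells, beginning with spermatogonia and reaching later stages as the cells already under way are shed.

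Genes entered the comparison from a minimum of 1 FPKM, reached in at least 3 of the 12 libraries. FPKM is the number of fragments of a gene divided by its transcript length and by the library's mapped fragments. Of 21004 genes in the table, 14675 were kept. Of 591 genes written into 33 lists of cell types and pathways, all were in the table and 530 were tested. In whole tissue, fewer cells of a type and less RNA per cell cannot be told apart.

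Genes of late spermatids were higher, and most genes of Sertoli cells lower, in the libraries labelled busulfan plus L.J. than in those labelled L.J. For elongating spermatids, the mean log2(FPKM + 1) of 28 genes was 9.03, 8.87 and 9.08 in the busulfan plus L.J. libraries, against 6.92, 8.22 and 6.29 in the L.J. libraries. For Sertoli cells, the mean of 22 genes was 3.86, 3.69 and 3.76 in the busulfan plus L.J. libraries, against 4.69, 4.35 and 6.41 in the L.J. libraries. Groups did not overlap in either list. A drug known to remove germ cells is thus the label of the libraries richer in spermatid transcripts, and every direction below is that of the libraries as labelled.

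**Figure D1:**
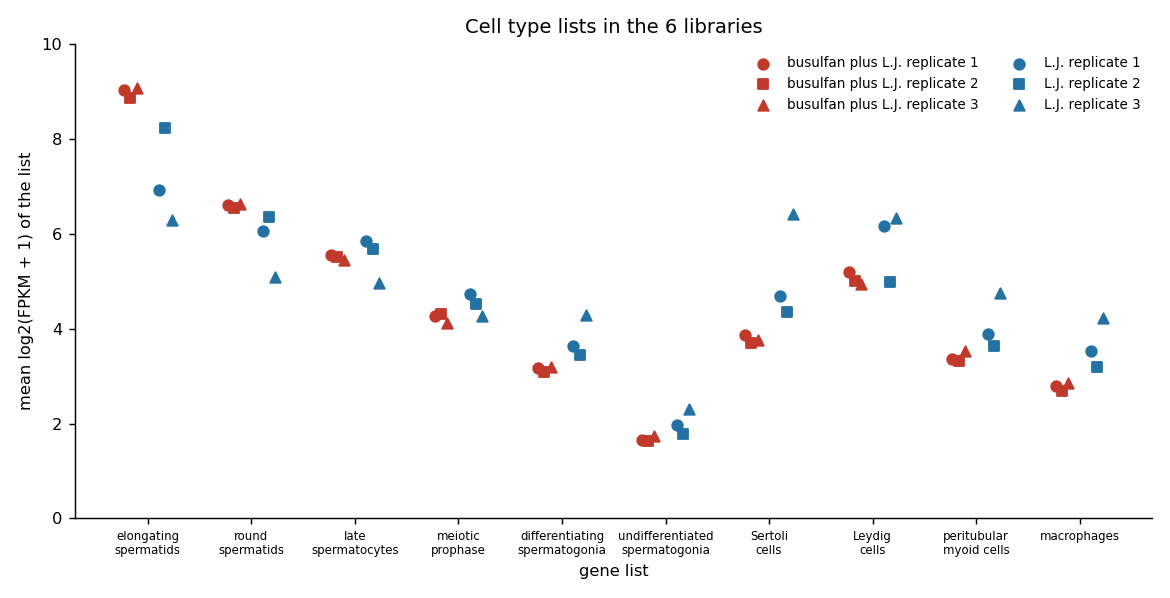
Mean log2(FPKM + 1) of the tested genes of 10 cell type lists (vertical axis) in each of the 6 libraries. Each point is 1 library, red for busulfan plus L.J. and blue for L.J., with shapes for replicates 1, 2 and 3; the red points lie close together, while the elongating spermatid means of the blue points run between 6.29 and 8.22.

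The 3 L.J. libraries differed from each other far more than the 3 busulfan plus L.J. libraries did. The median SD of a gene on the log2 scale was 0.12 in busulfan plus L.J. and 0.423 in L.J., and it was larger in L.J. for 13023 genes (88.7%). Among the other libraries it was 0.163 in busulfan and 0.192 in control. Across the 14675 genes, Pearson's r was 0.987 to 0.989 between busulfan plus L.J. libraries, while it was 0.969 between L.J. replicates 1 and 2, 0.913 between 1 and 3, and 0.867 between 2 and 3. L.J. replicate 2 was the library nearest to the busulfan plus L.J. group, with r of 0.974 to 0.979, against 0.792 to 0.8 for L.J. replicate 3. These correlations are across genes, which are not independent replicates.

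The balance of spermatid to Sertoli transcripts within a library varied in the same way. The elongating spermatid mean exceeded the Sertoli mean by 5.17, 5.18 and 5.32 on the log2 scale in the busulfan plus L.J. libraries. In the L.J. libraries the difference was 2.23, 3.87 and -0.12. The busulfan libraries had 5.13, 5.26 and 5.38, and the control libraries had 0.77, 2.73 and 0.18. Both sets labelled with busulfan thus lay in a narrow range, and both sets without it in a wide and lower range. The gap between elongating spermatid and meiotic genes was also wider with the busulfan label, at 4.77, 4.57 and 4.96 in busulfan plus L.J., against 2.18, 3.71 and 2.02 in L.J.

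The spread inside the L.J. group ran along the same genes as the difference between the groups. The difference of L.J. replicate 2 from L.J. replicate 3 and that of the busulfan plus L.J. mean from L.J. replicate 1 share no library. They had the same sign for 76.2% of genes, with a Pearson's r of 0.69 across the 14675 genes. Only 27.7% of genes were higher in busulfan plus L.J. than in L.J., and median FPKM was 7.73 in L.J. replicate 2 and 11.2 in replicate 3. Such a shared shift by itself raises the share of equal signs. Other splits of the L.J. libraries were not read. Of the genes whose groups did not overlap, L.J. replicate 2 was the nearest L.J. library for 1800 of those higher (88.7%) and 5989 of those lower (84.0%).

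**Figure D2:**
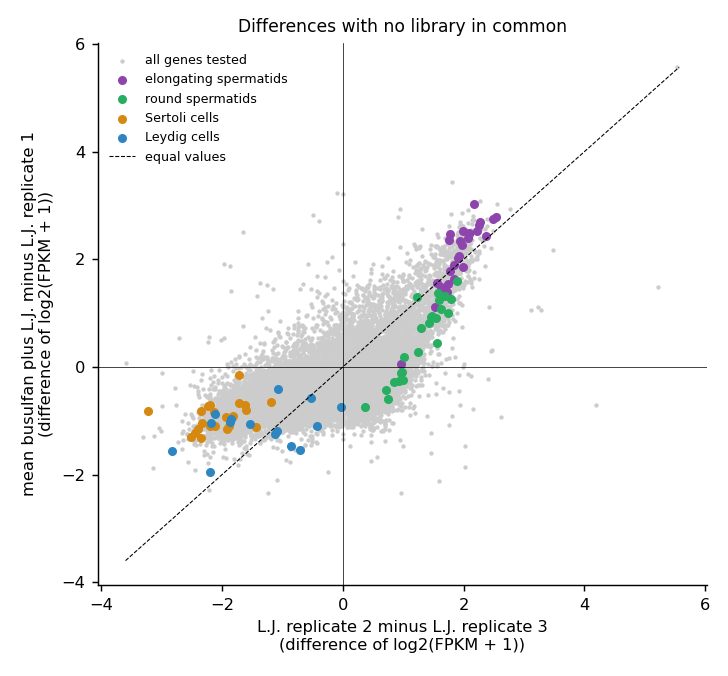
Difference of log2(FPKM + 1) between L.J. replicates 2 and 3 (horizontal axis) against that between the busulfan plus L.J. mean and L.J. replicate 1 (vertical axis). Each point is 1 of 14675 genes and the dashed line marks equal values; elongating spermatid genes lie at the upper right and Sertoli genes at the lower left.

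No gene passed an adjusted p of 0.05 when the 6 libraries were fitted alone (0 of 14675, 0.0%; limma with Benjamini-Hochberg adjustment, 4 residual degrees of freedom). The lowest adjusted p was 0.078 and was shared by 3136 genes, while 6787 genes (46.2%) had an unadjusted p under 0.05. At an adjusted p under 0.1 there were 6258 genes, of which 1544 were higher (10.5%) and 4714 lower (32.1%) in busulfan plus L.J. The count turned on single L.J. libraries. Without L.J. replicate 2 it was 7405 genes at 0.05, and without L.J. replicate 3 it was 5867, whereas leaving out L.J. replicate 1 gave 0. Where a single library was left out, its group kept 2.

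A fit of all 12 libraries, which pools the spread of the 4 groups, called 7556 genes at an adjusted p of 0.05, 1719 of them higher (11.7%) and 5837 lower (39.8%) in busulfan plus L.J. (limma). That spread is smaller than the one within L.J., so its standard errors may be too small for this comparison. With a separate weight for each group, limma called 666 higher (4.54%) and 225 lower (1.53%). Because the fits differ so widely, the account below rests on the values of each library and on whether the groups overlapped, and the 12-library count is given beside them for germ cells and for Sertoli, Leydig, myoid cells and macrophages.

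The groups did not overlap for 9157 genes (62.4%), with all 3 busulfan plus L.J. libraries above all 3 L.J. libraries for 2029 genes (13.8%) and below them for 7128 (48.6%). The median change of all genes was -0.40 on the log2 scale. Setting every library to the same median moved this to 0.03 and turned the balance, to 3928 genes higher (26.8%) and 3183 lower (21.7%). Higher genes were thus 22.2% of the non-overlapping genes as deposited and 55.2% after scaling, and 5212 genes did not overlap in the same direction both ways. Changes are given below as deposited. Counts for a list are of genes whose groups did not overlap, to be read against the 13.8% higher and 48.6% lower among all genes as deposited, the 26.8% higher and 21.7% lower after median scaling, and the 11.7% higher and 39.8% lower of the 12-library fit.

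The genes named first are the 14 higher and the 14 lower with the smallest p among non-overlapping genes with at least 5 FPKM in the higher group. All 28 had an adjusted p of 0.078 in the 6-library fit and of 0.0152 in the 12-library fit (limma). Their non-overlap is part of how they were chosen. Several genes of the higher set are known from sperm and testis, among them Ttc21a, a protein of intraflagellar transport needed to build the sperm tail. Ttc21a is at chr9:119937589-119969430 in GRCm38 and had 34.6, 32.8 and 34.3 FPKM in the busulfan plus L.J. libraries, against 7.53, 15.2 and 8.64 FPKM in the L.J. libraries. The change was 1.67 ± 0.26 on the log2 scale (SE), and L.J. replicate 2 was the highest of its group, as it was for most genes of the set.

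Spata25, at chr2:164827382-164828534 and named for its association with spermatogenesis, had 22.5, 16 and 21.6 FPKM in busulfan plus L.J. and 5.42, 7.55 and 3.48 FPKM in L.J. Cst13, at chr2:148820069-148830410 and a member of the cystatin family of protease inhibitors, had 66.5, 58.1 and 59.5 FPKM in busulfan plus L.J. and 10.8, 25.4 and 7.12 FPKM in L.J. Its change of 2.19 ± 0.40 was the largest of the 14. Smok2b, a sperm motility kinase, stood at 4.63, 9.21 and 8.71 FPKM in busulfan plus L.J., against 1.90, 0.79 and 0.36 FPKM in L.J. Samt3, a membrane protein named for spermatogenesis, and Iqcf6, an IQ motif protein, were higher by 1.38 and 1.88.

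The rest of the higher set had no single role in common. Tor1aip1, an inner nuclear membrane protein that binds lamins, was the most abundant, with 88.0, 89.9 and 98.0 FPKM in busulfan plus L.J. and 37.1, 53.6 and 41.2 FPKM in L.J. Etv2, an ETS factor known for specifying the endothelial and blood lineages in the embryo, had 7.22, 6.81 and 12.3 FPKM in busulfan plus L.J. and 1.57, 2.60 and 0.55 FPKM in L.J. Ncan, which encodes the brain proteoglycan neurocan, had 4.47, 5.64 and 6.88 FPKM in busulfan plus L.J. and 1.21, 2.05 and 0.71 FPKM in L.J. Serinc2, Plbd1, Csrnp1, Tnfaip2 and Tmem184c were higher by 1.21, 1.11, 1.26, 1.28 and 1.10 on the log2 scale.

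The lower set held macrophage genes and genes of basic cell functions. Cd68, a lysosomal membrane protein of macrophages at chr11:69664213-69666170, had 5.22, 7.34 and 7.33 FPKM in busulfan plus L.J. and 18.1, 13.7 and 22.6 FPKM in L.J., a change of -1.31 ± 0.24. Lyz2, the lysozyme of macrophages and neutrophils at chr10:117277541-117282272, had 9.69, 6.44 and 11.2 FPKM in busulfan plus L.J. and 24.3, 24.4 and 51.5 FPKM in L.J. In both, L.J. replicate 3 was the highest of the 6 libraries. Zfp868, a zinc finger gene, had the smallest p of the lower set and is described with the libraries without L.J.

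The other genes of the lower set described here are used by most cells. Tfdp1, the dimerization partner of E2F factors, had 12.1, 12.4 and 12.5 FPKM in busulfan plus L.J. and 27.8, 19.7 and 27.8 FPKM in L.J. Copa, a coat protein of vesicles returning to the endoplasmic reticulum, had 26.7, 21.0 and 20.6 FPKM in busulfan plus L.J. and 45.9, 37.6 and 53 FPKM in L.J. Hadhb and Mrpl3, which serve mitochondrial fat oxidation and the mitochondrial ribosome, had changes of -0.97 and -1.15. Eral1, Zc3h7a, Cops8, Orc4, Fam114a2 and Polr2b ranged between -1.08 and -0.84. After median scaling these genes were still lower in busulfan plus L.J., with smaller changes.

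**Figure D3:**
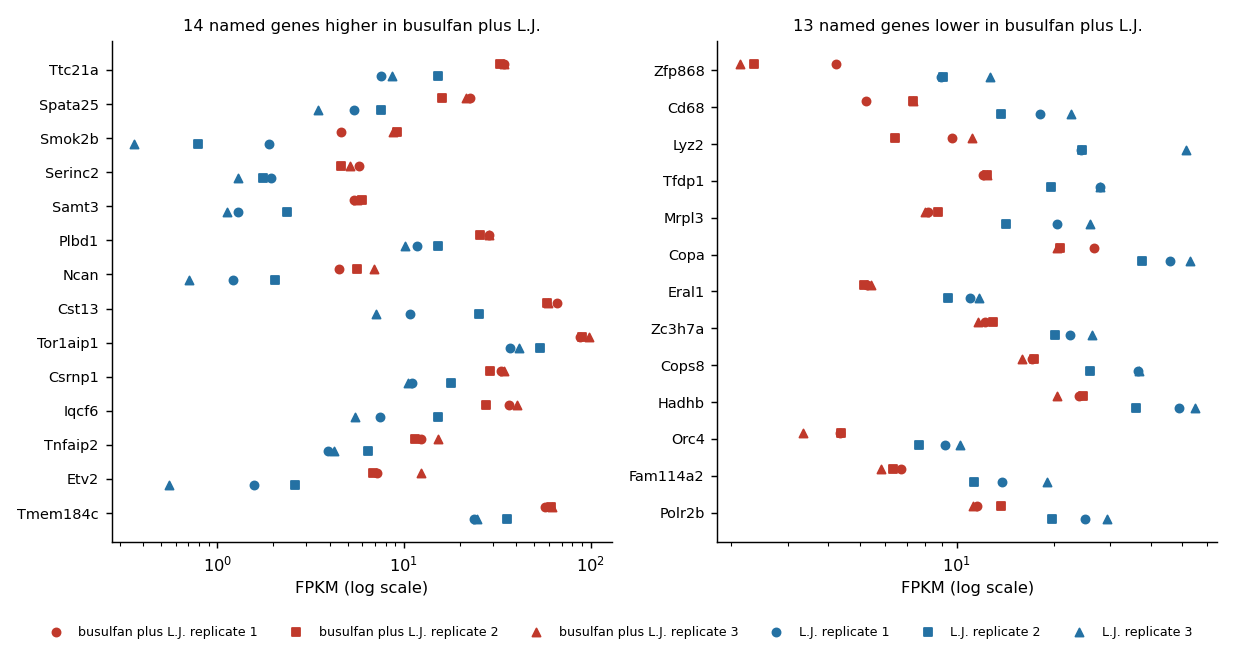
FPKM on a log scale (horizontal axis) of the 14 higher genes and 13 of the lower genes in each of the 6 libraries. Red points are busulfan plus L.J. and blue points L.J., with shapes for the replicates; in the higher panel the blue square, L.J. replicate 2, is often the blue point nearest to the red ones, as for Cst13 at 25.4 FPKM.

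The 250 bases before the transcript start given in a RefSeq promoter table for GRCm38 were read for 11680 of the tested genes and searched on both strands for 3 motifs. The CRE core TGACGT, which reads as ACGTCA on the other strand and is known as the site of CREM and its relatives, was in 1090 of these promoters (9.33%). The NR5A1 site AAGGTCA, which reads as TGACCTT on the other strand, was in 381 (3.26%), and the SP1 site GGGCGG, whose other strand reads CCGCCC, in 6274 (53.7%). Of the 14 genes of the higher set, 0 promoters held the CRE core, 2 the NR5A1 site and 5 the SP1 site. Of 12 promoters of the lower set, 1 held the CRE core, 0 the NR5A1 site and 9 the SP1 site. Of 25 elongating spermatid promoters, 2 held the CRE core and 1 the NR5A1 site. The counts are small, and a match is only a match of letters. For Cst13 that start lies inside the span of the gene given above. Shown with the motif in capitals, 5′ to 3′ on the gene's strand, are Cst13 as the higher gene with the largest change (chr2:148819849-148820098, + strand, NR5A1 site), Prm2 as the spermatid gene with the largest change (chr16:10792106-10792355, − strand, NR5A1 site) and Cd68 as the only lower gene with a match to the CRE core (chr11:69666171-69666420, − strand).
Cst13: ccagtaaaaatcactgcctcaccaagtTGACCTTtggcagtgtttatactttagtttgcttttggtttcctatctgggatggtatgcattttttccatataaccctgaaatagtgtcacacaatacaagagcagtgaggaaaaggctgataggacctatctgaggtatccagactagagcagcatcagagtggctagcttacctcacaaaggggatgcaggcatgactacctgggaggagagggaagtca
Prm2: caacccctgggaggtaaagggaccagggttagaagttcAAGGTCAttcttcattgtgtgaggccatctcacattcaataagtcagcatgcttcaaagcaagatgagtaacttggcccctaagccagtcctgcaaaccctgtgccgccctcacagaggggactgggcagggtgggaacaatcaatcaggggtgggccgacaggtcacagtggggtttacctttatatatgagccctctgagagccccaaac
Cd68: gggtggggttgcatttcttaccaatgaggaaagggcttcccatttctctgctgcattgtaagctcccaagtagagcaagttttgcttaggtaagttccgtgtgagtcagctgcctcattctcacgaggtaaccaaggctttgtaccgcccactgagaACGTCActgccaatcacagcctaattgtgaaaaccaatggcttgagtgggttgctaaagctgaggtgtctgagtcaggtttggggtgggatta

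Elongating spermatid genes were the list with the clearest separation. The median change of the 28 tested genes was 1.90 (2.42 after median scaling). The groups did not overlap, with busulfan plus L.J. higher, for 27 of 28 genes, against 13.8% of all genes. The 12-library fit called 27 higher, against 11.7% of all genes, and the fit with group weights called 25. Transition proteins and protamines pack the DNA of the sperm head. Tnp2, a transition protein at chr16:10787935-10788655, had 10735, 9144 and 12446 FPKM in busulfan plus L.J. and 1641, 5584 and 1154 FPKM in L.J. Prm2, a protamine at chr16:10791377-10792105, had 9937, 8819 and 11513 FPKM in busulfan plus L.J. and 1235, 5088 and 1127 FPKM in L.J. Prm1, the other protamine, had 4551, 3600.4 and 4087 FPKM in busulfan plus L.J. and 755, 2609 and 503 FPKM in L.J. L.J. replicate 2 held several times as much of each as L.J. replicates 1 and 3, and still less than every busulfan plus L.J. library. The change of Prm2 was 2.38 ± 0.72 on the log2 scale, and its standard error shows how far the L.J. libraries were apart.

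Round spermatid genes were also higher, by a median of 0.94 over 24 genes (1.44 after median scaling). The groups did not overlap for 15 genes, all higher in busulfan plus L.J., against 13.8% of all genes. The 12-library fit called 13 higher, against 11.7% of all genes, and 0 lower. Acrv1, a protein of the acrosome, had 175, 172 and 201 FPKM in busulfan plus L.J. and 75.5, 123 and 34.6 FPKM in L.J. Catsper1, the pore of the sperm calcium channel, had 181, 192 and 201 FPKM in busulfan plus L.J. and 62.3, 115 and 30.1 FPKM in L.J. Spaca1, an acrosomal membrane protein needed for sperm head shape, was higher by 1.24 ± 0.38. In these genes too L.J. replicate 3 was lowest and L.J. replicate 2 highest of the L.J. libraries.

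Of 14 genes of sperm glycolysis, 7 were higher without overlap and 0 lower, against 13.8% and 48.6% of all genes, with a median of 0.22 (0.74 after scaling). The 12-library fit called 6 higher. Gapdhs, the glyceraldehyde phosphate dehydrogenase of sperm, had 2096, 2021 and 3058 FPKM in busulfan plus L.J. and 397, 1310.5 and 266 FPKM in L.J. Of 23 genes of the flagellar axoneme, 4 were higher without overlap, which is near the 13.8% of all genes, 0 were lower and 19 overlapped, with a median of 0.37. After scaling 13 were higher, against 26.8% of all genes, with a median of 0.89, and the 12-library fit called 3 higher. Tekt5, a tektin filament protein of the sperm tail, had 63.9, 57.3 and 61.7 FPKM in busulfan plus L.J. and 25.5, 37.8 and 10.7 FPKM in L.J., whereas Dnah1, a dynein heavy chain, overlapped between the groups, with a change of -0.28 ± 0.25.

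Genes of earlier germ cells were not higher as groups in the values as deposited. The 12 genes of late spermatocytes had a median change of -0.08 (0.41 after scaling), with 2 higher and 1 lower without overlap and by the 12-library fit. Among all genes 13.8% were higher and 48.6% lower without overlap. After scaling 3 of the 12 were higher and 0 lower, against 26.8% and 21.7% of all genes. Pgk2, the phosphoglycerate kinase that replaces the X-linked one from meiosis on, was the late spermatocyte gene with the largest change, at 352, 323 and 334 FPKM in busulfan plus L.J. and 155, 272 and 88.5 FPKM in L.J. Piwil1, the piRNA-binding protein of pachytene cells, had 82.8, 85.2 and 87.4 FPKM in busulfan plus L.J. and 178, 108 and 66.2 FPKM in L.J., so that the busulfan plus L.J. values lay inside the L.J. range. The 28 genes of meiotic prophase had a median of -0.38 (0.08 after scaling), with 1 higher and 10 lower without overlap and 1 higher and 7 lower by the 12-library fit, beside the 48.6% of all genes that were lower without overlap.

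After scaling 5 were higher and 1 lower. Most named members belong to the synaptonemal complex, which joins paired chromosomes in meiosis. Sycp3, of its lateral elements, had 217, 247 and 199.6 FPKM in busulfan plus L.J. and 354, 286 and 232 FPKM in L.J., with a change of -0.38 ± 0.24 that turned positive after median scaling. Sycp1, of its transverse filaments, was likewise overlapping, with a change of -0.31 ± 0.23 and a turn to positive after scaling. Syce2, of its central element, was the 1 meiotic gene higher without overlap, at 142, 131 and 131 FPKM in busulfan plus L.J. and 61.9, 78.2 and 43.1 FPKM in L.J. The 17 tested genes of the piRNA pathway had a median of -0.21 (0.28 after scaling), with 2 higher and 8 lower as deposited, a share near that of all genes, and 4 higher and 0 lower after scaling. The 12-library fit called 2 higher and 7 lower. The largest change among them was that of Dnmt3l, a cofactor of DNA methylation in male germ cells, with 3.35, 3.55 and 2.91 FPKM in busulfan plus L.J. and 1.24, 1.17 and 0.92 FPKM in L.J.

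Most tested genes of spermatogonia were lower in busulfan plus L.J. as deposited. Fewer were lower after scaling, when the share of all genes also fell, to 21.7%. Differentiating spermatogonia stayed above that share, and undifferentiated ones did not. Of 10 tested genes of differentiating spermatogonia, 8 were lower without overlap, against 48.6% of all genes, and 0 higher, and the 12-library fit called 6 lower. The median was -0.77 (-0.27 after scaling, with 5 lower and 2 higher). Kit, the receptor that marks the onset of differentiation, had 3.71, 3.15 and 3.43 FPKM in busulfan plus L.J. and 10.6, 5.88 and 21.9 FPKM in L.J. Stra8, which retinoic acid induces before meiosis, had 12.2, 11.4 and 12.8 FPKM in busulfan plus L.J. and 18.0, 13.7 and 36.6 FPKM in L.J. For both genes L.J. replicate 3 was the highest of the 6 libraries. Of 15 genes of undifferentiated spermatogonia, 10 were tested, with a median of -0.47, 2 higher and 7 lower without overlap. After scaling the median was -0.15, with 2 higher and 1 lower, and the 12-library fit called 1 higher and 3 lower.

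The receptor of the stem cell factor GDNF went the other way. Gfra1 had 1.87, 1.89 and 1.87 FPKM in busulfan plus L.J. and 1.12, 1.71 and 0.85 FPKM in L.J., levels close to the minimum of 1 FPKM. Zbtb16, a repressor needed for stem cell upkeep, had 1.99, 2.11 and 2.81 FPKM in busulfan plus L.J. and 4.46, 2.96 and 8.18 FPKM in L.J. Etv5, a GDNF-responsive factor also made by Sertoli cells, had 4.25, 5.07 and 4.34 FPKM in busulfan plus L.J. and 7.08, 6.20 and 20.7 FPKM in L.J. The 5 undifferentiated genes that were not tested were below the minimum.

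Sertoli cell genes had the most negative median of the 33 lists. The median change of the 22 tested genes was -1.42 (-0.95 after scaling), with 20 lower and 0 higher without overlap, against 48.6% and 13.8% of all genes. The 12-library fit also called 20 lower, and after scaling 15 were lower without overlap. Clu, the secreted chaperone clusterin at chr14:65968483-65981548, had 412, 361 and 408 FPKM in busulfan plus L.J. and 812, 651 and 3288 FPKM in L.J. Cst12, a cystatin made by Sertoli cells, had 39.0, 35.2 and 47.2 FPKM in busulfan plus L.J. and 101, 73.2 and 421 FPKM in L.J. Sox9, the transcription factor that directs Sertoli fate, had 4.75, 7.21 and 4.92 FPKM in busulfan plus L.J. and 9.70, 9.14 and 45.5 FPKM in L.J. In each, L.J. replicate 3 stood several times above L.J. replicates 1 and 2, which in turn stood above every busulfan plus L.J. library.

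Of 15 tested genes of the blood-testis barrier, 12 were lower without overlap, against 48.6% of all genes, and 0 higher. Their median was -1.06 (-0.53 after scaling, with 6 lower and 1 higher), and the 12-library fit called 8 lower. Gja1, the gap junction protein connexin 43, had 9.66, 10.2 and 9.93 FPKM in busulfan plus L.J. and 26.3, 17.1 and 83.6 FPKM in L.J. Jam2, a junctional adhesion molecule, had 3.33, 3.43 and 3.03 FPKM in busulfan plus L.J. and 9.10, 7.37 and 49.0 FPKM in L.J. Cldn3, a claudin of the barrier, overlapped between the groups, with 10.7, 6.98 and 10.1 FPKM in busulfan plus L.J. and 6.64, 8.01 and 12.1 FPKM in L.J.

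Glutathione transferases include enzymes that conjugate busulfan itself. Of 19 tested, 9 were lower and 2 higher without overlap, which is near the shares of all genes. The median was -0.85 (-0.43 after scaling, with 5 lower and 2 higher), and the 12-library fit called 9 lower and 1 higher. Gsta2 had 7.16, 7.03 and 5.88 FPKM in busulfan plus L.J. and 20.1, 10.5 and 50.6 FPKM in L.J. Gstm6 had 33.8, 27.7 and 40 FPKM in busulfan plus L.J. and 74.4, 69.4 and 346 FPKM in L.J. Members of each class are close in sequence, and the authors' counting could split reads between them, so single values are uncertain. Of 24 antioxidant genes, 14 were lower and 2 higher, against 48.6% and 13.8% of all genes. Their median was -0.70 (-0.21 after scaling, with 8 lower and 5 higher). The 12-library fit called 12 lower and 2 higher, against 39.8% and 11.7% of all genes. Prdx3, a mitochondrial peroxidase, had 8.32, 7.97 and 6.96 FPKM in busulfan plus L.J. and 18.4, 11.1 and 42.8 FPKM in L.J., while Sod1, the cytosolic superoxide dismutase, overlapped at 247, 203 and 211 FPKM in busulfan plus L.J. and 244, 193 and 294 FPKM in L.J.

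For most Leydig cell genes the groups overlapped, in 10 of 15 tested. Without overlap 5 were lower and 0 higher, fewer than the 48.6% of all genes that were lower, and the 12-library fit called 4 lower. The median change was -0.63 and became -0.12 after median scaling, with 3 lower and 1 higher. Star, which brings cholesterol into mitochondria for steroid synthesis, had 34.4, 33.5 and 22.7 FPKM in busulfan plus L.J. and 64.7, 31.5 and 42.5 FPKM in L.J. Cyp17a1, the enzyme that turns progestins into androgens, had 267, 192 and 216 FPKM in busulfan plus L.J. and 508, 124 and 267 FPKM in L.J., and its change of -0.20 ± 0.48 turned positive after scaling. Hsd3b1, the dehydrogenase that makes progesterone, was the member with the largest change and did not overlap, at 49.1, 52.9 and 54.7 FPKM in busulfan plus L.J. and 102, 135 and 489.8 FPKM in L.J.

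Insl3, the peptide hormone of testicular descent, and Cyp11a1, which starts steroid synthesis by cleaving the cholesterol side chain, were chosen after their values were seen. Insl3 had 1177, 959 and 954 FPKM in busulfan plus L.J. and 2108, 774 and 3522 FPKM in L.J. Cyp11a1 had 56.6, 51.0 and 50.6 FPKM in busulfan plus L.J. and 146, 37.4 and 68.2 FPKM in L.J. In both, the busulfan plus L.J. libraries lay inside the L.J. range. Leydig minus Sertoli means within a library were 1.33, 1.31 and 1.19 in busulfan plus L.J., against 1.47, 0.63 and -0.07 in L.J.

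Most tested genes of smooth muscle and macrophages were lower, against 48.6% of all genes. Of 11 tested peritubular myoid genes, 8 were lower, 1 was higher and 2 overlapped, and their median was -1.0 (-0.50 after scaling, with 5 lower and 1 higher). The 12-library fit called 6 lower and 1 higher. Acta2, smooth muscle actin, had 14.6, 15.4 and 17.1 FPKM in busulfan plus L.J. and 34.7, 24.5 and 71.5 FPKM in L.J. The gene that was higher was Actg2, another smooth muscle actin, with 208, 161 and 211 FPKM in busulfan plus L.J. and 45.8, 101 and 29.8 FPKM in L.J. Of 14 tested macrophage genes, 11 were lower, 1 was higher and 2 overlapped, and the median was -1.08 (-0.67 after scaling, with 8 lower and 1 higher). By the 12-library fit 10 were lower and 1 higher. C1qa, a chain of the first complement component, had 6.51, 5.69 and 6.55 FPKM in busulfan plus L.J. and 19.8, 12.5 and 40 FPKM in L.J. Csf1r, the receptor that macrophages need to survive, had 2.04, 1.54 and 1.82 FPKM in busulfan plus L.J. and 4.45, 2.70 and 10.5 FPKM in L.J. The gene that was higher here was Aif1, an actin-binding protein of macrophages. It had 414, 347 and 425 FPKM in busulfan plus L.J. and 103, 238 and 65.7 FPKM in L.J. In Actg2 and Aif1 alike, L.J. replicate 2 was the highest and L.J. replicate 3 the lowest L.J. library, as in the spermatid genes named above. Which cells made these transcripts was not tested. Because Aif1 is the most abundant member in the busulfan plus L.J. libraries, the summed FPKM of the macrophage list was 408 to 497 in busulfan plus L.J. and 257 to 365 in L.J., while most members were lower.

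Markers of tissues that can adhere to a testis were also read. Their part in the results above was not tested. The summed FPKM of all 10 adipocyte genes was 240 to 258 in busulfan plus L.J. and 91.9 to 198 in L.J. Of the 7 tested, 2 were higher and 0 lower, against 13.8% and 48.6% of all genes. Lipe, the hormone-sensitive lipase that is also made in germ cells, had the largest change, at 117, 113 and 115 FPKM in busulfan plus L.J. and 23.8, 77.7 and 19.5 FPKM in L.J. Adipoq, the fat hormone adiponectin, had 9.57, 8.64 and 8.71 FPKM in busulfan plus L.J. and 5.38, 4.53 and 2.02 FPKM in L.J. All 13 epididymis genes (4 tested) summed to 149 to 191 FPKM in busulfan plus L.J. and 69.0 to 216 FPKM in L.J. Crisp1, a secretion of the epididymis, had 0.08, 0.64 and 0.04 FPKM in busulfan plus L.J. and 0.17, 1.86 and 33.6 FPKM in L.J., so that L.J. replicate 3 was the highest. All 10 erythroid genes (8 tested) summed to 64.2 to 363 FPKM in busulfan plus L.J. and 56.8 to 191 FPKM in L.J. All 14 lymphocyte genes (6 tested) summed to 11.5 to 31.0 FPKM in busulfan plus L.J. and 10.4 to 13.2 FPKM in L.J. None of the tested genes of these lists was at 0 in all 6 libraries. Of 12 endothelial genes, 1 was higher and 3 were lower, against 13.8% and 48.6% of all genes, the median being -0.39 (-0.09 after scaling).

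Genes of the response to DNA damage and of cell division were lower as deposited in larger shares than the 48.6% of all genes. After median scaling 21.7% of all genes were lower. The p53 response stayed above that share, and crosslink repair and cell cycle fell below it. Of 22 p53 response genes, 17 were lower and 1 higher without overlap, the median being -0.76, and after scaling 8 were lower and 2 higher, the median being -0.29. By the 12-library fit 9 were lower, near the 39.8% of all genes, and 1 was higher. Cdkn1a, the cell cycle inhibitor p21, had 9.0, 9.30 and 9.93 FPKM in busulfan plus L.J. and 13.2, 11.6 and 28.5 FPKM in L.J. Mdm2, the ubiquitin ligase of p53, had a change of -0.22 ± 0.17 that turned positive after scaling. Of 21 genes of crosslink repair, 12 were lower and 0 higher (11 lower by the 12-library fit), and scaling moved their median of -0.47 to -0.00, with 3 lower and 4 higher. Fanca and Fancc, of the Fanconi anaemia core complex, had changes of -0.55 ± 0.22 and -0.53 ± 0.20. Of 22 cell cycle genes, 14 were lower and 0 higher (13 lower by the 12-library fit), and the median was -0.50 (-0.05 after scaling, with 2 lower and 0 higher). Top2a, the topoisomerase of dividing cells, had 33.8, 37.0 and 29.5 FPKM in busulfan plus L.J. and 58.7, 50.1 and 45.5 FPKM in L.J.

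As deposited, lists of ribosomal, oxidative phosphorylation, cholesterol synthesis and matrix genes had shares near or below those of all genes. The retinoic acid and clock lists were lower without overlap in larger shares than the 48.6% of all genes. By the 12-library fit their shares were closer to the 39.8% of all genes. Ribosomal proteins (20 genes) and oxidative phosphorylation (20 genes) each had 10 lower and 0 higher, close to the 48.6% of all genes. Their medians of -0.43 and -0.40 became 0.09 and 0.12 after scaling, with 3 and 2 genes higher and 1 lower in each. Cholesterol synthesis (20 genes) had 7 lower and 1 higher, with a median of -0.52 (-0.03 after scaling), and extracellular matrix (21 genes) had 8 lower and 0 higher, with a median of -0.58 (-0.17 after scaling). Both shares are below that of all genes as deposited. After scaling 3 cholesterol genes were lower and 4 higher. For matrix it was 7 lower and 2 higher, a share lower above the 21.7% of all genes. By the 12-library fit 6 cholesterol and 8 matrix genes were lower, and 0 higher. Dcn, the proteoglycan decorin, had the largest change among the matrix genes, with 20.6, 16.6 and 19.1 FPKM in busulfan plus L.J. and 46.5, 44.8 and 169 FPKM in L.J. Retinoic acid metabolism (12 genes) had 7 lower and 0 higher, with a median of -0.70 (-0.25 after scaling, with 4 lower and 1 higher). By the 12-library fit 5 were lower. The 15 clock genes had 12 lower and 1 higher, with a median of -0.56, and after scaling 5 lower and 2 higher, with a median of -0.25, while the 12-library fit called 7 lower and 1 higher. Clock itself had 3.59, 4.34 and 2.99 FPKM in busulfan plus L.J. and 7.91, 5.85 and 18.1 FPKM in L.J.

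Of all genes, 48.6% were lower and 13.8% higher without overlap as deposited. The shares of the 2 immune lists were near or below these. Immediate early genes were mixed, with a share lower near that of all genes. Of 12 antigen presentation genes, 3 were lower and 0 higher, and the median was -0.63 (-0.28 after scaling). H2-D1, a class I antigen, had 28.5, 19.3 and 27.7 FPKM in busulfan plus L.J. and 54.8, 30.8 and 118 FPKM in L.J., and class I genes are close enough in sequence to share reads. Of 10 genes of inflammation and interferon, 4 were lower and 1 higher, and the median was -0.68 (-0.36 after scaling). Nfkbia, the inhibitor of NF-kappaB, had 5.05, 4.65 and 4.69 FPKM in busulfan plus L.J. and 11.6, 9.67 and 44.5 FPKM in L.J. The gene higher without overlap was Ccl5, a chemokine of T cells and macrophages, with 3.52, 1.90 and 4.2 FPKM in busulfan plus L.J. and 0.69, 1.80 and 0.61 FPKM in L.J. Of 12 immediate early genes, 3 were higher and 6 lower, with a median of -0.81, and after scaling 5 were higher and 3 lower, with a median of -0.44. Egr3, a zinc finger factor, had 13.8, 14 and 16.1 FPKM in busulfan plus L.J. and 4.22, 9.67 and 3.02 FPKM in L.J., while Jun, a subunit of AP-1, had 2.02, 2.26 and 1.98 FPKM in busulfan plus L.J. and 3.92, 3.30 and 9.37 FPKM in L.J.

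The difference between busulfan plus L.J. and L.J. was then set beside that between busulfan and control, which shares no library with it. Across the 14675 genes the changes had the same sign for 93.8% of genes and a Pearson's r of 0.93. The median changes of all genes were -0.4 and -0.51, and such a shared shift by itself raises the share of equal signs. The median change of elongating spermatid genes was 1.90 in busulfan plus L.J. against L.J. and 2.59 in busulfan against control, and that of Sertoli genes -1.42 and -1.48. The interaction, which tests the difference between these 2 comparisons in the 12-library fit, passed for 0 of 14675 genes (0.0%; limma, lowest adjusted p 1.0), and 182 genes (1.24%) had an unadjusted p under 0.05. No difference between the comparisons was therefore detectable with 3 libraries a group, which does not show that they are alike.

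**Figure D4:**
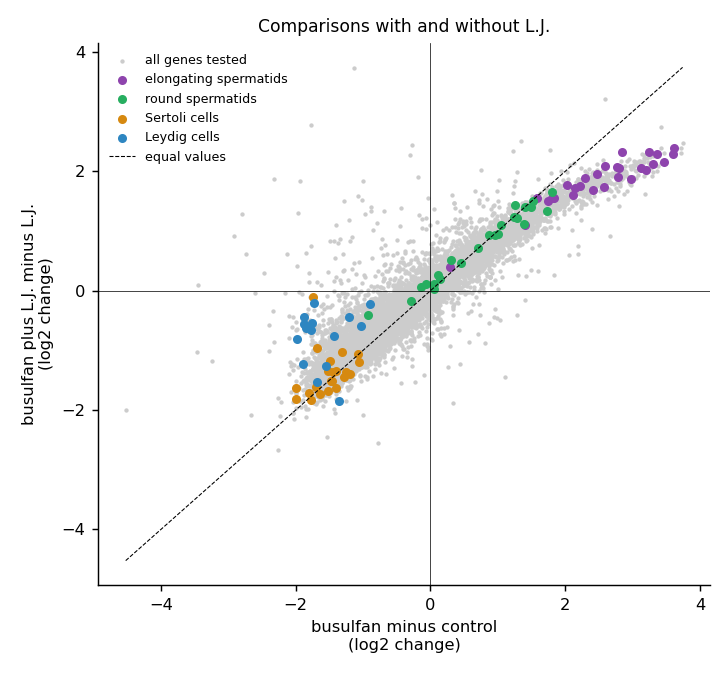
Log2 change of busulfan plus L.J. against L.J. (vertical axis) and of busulfan against control (horizontal axis) for 14675 genes, each a point. The dashed line marks equal values; most elongating spermatid genes lie below it at the upper right, with medians of 1.90 and 2.59, and most Leydig genes above it, with medians of -0.63 and -1.73.

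Leydig genes lay apart from the line of equal changes. Their median change was -0.63 in busulfan plus L.J. against L.J. and -1.73 in busulfan against control. Of the 15 genes, 5 had an unadjusted interaction p under 0.05, and none passed after adjustment (limma). Erythroid and adipocyte lists had gaps of similar size, with medians of 0.36 and 0.20 in busulfan plus L.J. against L.J. and -0.83 and -0.80 in busulfan against control. The mean of the Leydig list was 5.19, 5.0 and 4.95 in busulfan plus L.J., 6.16, 4.98 and 6.34 in L.J., 5.19, 4.81 and 5.27 in busulfan, and 6.76, 6.30 and 6.98 in control. Cyp11a1 had 73.6, 49.5 and 77.7 FPKM in the busulfan libraries and 283, 176 and 294 FPKM in the control libraries. Both groups with busulfan overlapped, and L.J. replicate 2 was below them. The interaction of Cyp11a1 was 1.43 ± 0.56 on the log2 scale (SE, adjusted p 1.0 by limma), and that of Star was 1.32 ± 0.48.

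**Figure D5:**
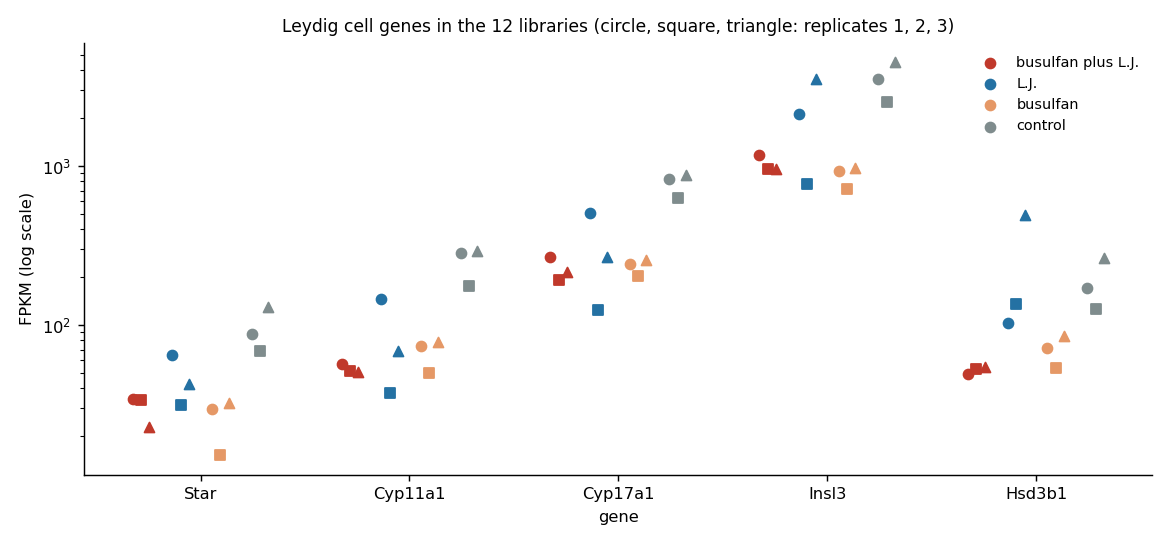
FPKM on a log scale (vertical axis) of 5 Leydig cell genes in all 12 libraries, with colours for the 4 groups and shapes for the replicates. The busulfan plus L.J. and busulfan points lie at similar heights and the L.J. points are spread, as for Cyp17a1 at 508, 124 and 267 FPKM; L.J. replicate 2 (blue square) is the lowest L.J. library except for Hsd3b1.

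Single genes with the smallest interaction p were Vgll2, Lrrc17, Ibsp and Acsf2 on the positive side and Zfp868, Dynlt1a, Tmem242 and Dynlt1b on the negative side. Each had an adjusted p of 1.0 (limma). Vgll2, a cofactor of TEAD factors known from skeletal muscle, had 26.5, 24.0 and 15.1 FPKM in busulfan plus L.J. and 14.9, 12.4 and 6.81 FPKM in L.J. The busulfan libraries had 0.07, 0.64 and 11 FPKM and the control libraries 24.3, 14.2 and 22.3 FPKM, so busulfan replicates 1 and 2 stood apart from the other 10 libraries. Ibsp, a bone matrix protein, had 9.37, 1.65 and 0.57 FPKM in busulfan plus L.J. and 0.83, 0.29 and 0.28 FPKM in L.J., with 1 library making most of the group's level.

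Zfp868, at chr8:69610654-69625557, had 4.23, 2.36 and 2.13 FPKM in busulfan plus L.J. and 8.93, 9.05 and 12.7 FPKM in L.J. The busulfan libraries had 5.97, 6.91 and 7.42 FPKM and the control libraries 9.43, 9.13 and 9.80 FPKM. The 3 busulfan plus L.J. libraries were thus the lowest of the 12. Its change was -1.55 ± 0.27 in busulfan plus L.J. against L.J. and -0.43 in busulfan against control, and the interaction was -1.11 ± 0.29. Tmem242 had 36.3, 32.9 and 37.9 FPKM in busulfan plus L.J. and 58.9, 64.8 and 46.3 FPKM in L.J. The busulfan libraries had 55.6, 48.7 and 57.6 FPKM and the control libraries 46.4, 47.0 and 58.5 FPKM, so that busulfan plus L.J. was the lowest group. Dynlt1a and Dynlt1b, near-identical copies of a dynein light chain gene, had interactions of -1.07 ± 0.30 and -0.95 ± 0.34, and reads could be split between them, so their values are uncertain.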

How the data were processed

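RNA of mouse testis was sequenced in 12 libraries, 3 in each of 4 labelled groups, of which the 6 labelled busulfan plus L.J. and L.J. enter the comparison. The authors deposited FPKM for 21004 genes to 2 decimals. Per the submitters' processing notes, Bowtie 0.12.2 and the build mm10 were used. Which program made the FPKM, on which annotation and with what scaling, is not given in the sources used here. Depth is unknown, since the values carry no counts, and no interval for counting error is given.

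Genes with at least 1 FPKM in at least 3 libraries were kept (6329 were removed), and 26 date-like symbols were restored by gene identifier through RefSeq for GRCm38.p6, in which 20841 identifiers (99.2%) were found. The scale was log2(FPKM + 1), which understates the ratio for genes near 1 FPKM. The 6 libraries were fitted with limma 3.58.1 in R 4.3.3 (trend, not robust, 4 residual and 3.5 prior degrees of freedom), with Benjamini-Hochberg adjustment over all genes and a threshold of 0.05. Only these 6 enter because the pooled spread of all 4 groups is smaller than that within L.J. The interaction was fitted on all 12 (8 residual degrees of freedom). Fits were tested on simulated data with independent noise for each gene, which leaves out a spread shared across genes such as that within L.J. Python 3.11.15 with matplotlib 3.10.9 drew the figures.

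Members, lists and tests were chosen with earlier results of these data known. Named were the 14 largest increases and decreases past the threshold without overlap, or, since none passed, those with the smallest p, with at least 5 FPKM in the higher group and without predicted, non-coding and histone genes; in each list the first 2 members and that with the largest change; and the 4 higher and 4 lower genes of smallest interaction p. Some of these are not described, and 1 gene of the lower set is not reported here. Lists are described by counts and medians, without a test. Alternatives were the fit of all 4 groups, group weights, a replicate block, quantile normalization, median scaling, pseudocounts of 0.1 and 5, a minimum of 5 FPKM, no filter, limma robust without trend, a germ cell covariate, a minimum log2 change of 1, and leaving out libraries. The adjusted p under 0.1 and the counts of non-overlapping genes under alternatives were added after the data were seen.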

Additional observations from a re-analysis of the deposited data

How the results depend on the processing

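The count of genes past the threshold, 0 in the 6 libraries, was 7556 in the fit of all 4 groups (1719 higher and 5837 lower), 891 with group weights (666 and 225), 9006 without L.J. replicates 2 and 3 (1951 and 7055), where the lone L.J. library is assumed to vary like the busulfan plus L.J. libraries, and 6258 at an adjusted p under 0.1 (1544 and 4714). Leaving out each library in turn gave 0 to 7405 genes, 0 to 1746 higher and 0 to 5659 lower. Without busulfan plus L.J. replicate 2 it was 1, and it was 0 without replicate 1 or 3 of that group or without L.J. replicate 1. It also stayed 0 under the other pseudocounts, filters, scalings and the robust fit. With the germ cell covariate added to the fit of all 4 groups the count was 0, against 7556 in that fit without it. The labels do not say whether replicate numbers pair the samples. Deviations of same-numbered libraries correlated at 0.05, -0.02 and -0.05, which with 3 libraries a group cannot exclude a pairing. With a replicate block 0 genes passed (limma, 6072 at an unadjusted p under 0.05). The interaction passed for 1 lower gene without a filter, and for 0 to 1 genes, 0 to 1 of them higher and 0 lower, when single libraries were left out. Without L.J. replicate 3, 1843 genes had an unadjusted interaction p under 0.05 (limma). That number was 182 with all libraries and 115 to 384 without any other single library.

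Non-overlapping genes numbered 2207 to 2577 higher and 7331 to 8368 lower when single libraries were left out, 3928 higher and 3183 lower after median scaling, and 4245 lower after quantile normalization. Median scaling changed the sign of the median of 5 of 33 lists, and turned Sod1 to 0.40, Cyp17a1 to 0.33, Piwil1 to 0.18, Mdm2 to 0.30, Dnah1 to 0.20 (0.17 by quantile normalization), Sycp3 to 0.15, Sycp1 to 0.22, Dynlt1b to 0.18, Cyp11a1 to 0.07 and Lrrc17 to 0.12 on the log2 scale. The germ cell covariate, each library's elongating spermatid minus Sertoli mean, is made from the genes of those 2 lists, Prm1, Clu and Sox9 among them. A loss of change in such genes is thus built in. The covariate was 5.17 to 5.32 in busulfan plus L.J. and -0.12 to 3.87 in L.J., so it cannot be fully separated from the labels. With it in the 12-library fit, 19 of 33 list medians changed sign. Single genes then stood at 0.36 for Sod1, 0.50 for Cyp17a1, 0.03 for Zbtb16, 0.68 for Insl3, 0.22 for Sox9, 0.08 for Csf1r, 0.07 for Prdx3, 0.20 for Stra8, 0.30 for Cdkn1a, 1.27 for Crisp1, 0.01 for Acta2, -0.07 for Pgk2, -0.21 for Prm1, 0.06 for Jun, 0.13 for Clu, 0.23 for Cyp11a1, 0.27 for H2-D1, 0.22 for Lrrc17 and 0.17 for Etv5. When single libraries were left out, Sod1 lay between -0.28 and 0.02, Cyp17a1 between -0.72 and 0.29, Piwil1 between -0.69 and 0.01 and Cyp11a1 between -0.91 and 0.06. Cldn3 was -0.10 without L.J. replicate 1 and -0.04 without busulfan plus L.J. replicate 1, and Crisp1 was 0.07 without L.J. replicates 2 and 3. The cause was not tested. Depth is unknown, so which low genes lie within counting error cannot be told.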

Other observations

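Of the genes tested, 1084 were under 1 FPKM in all 3 busulfan plus L.J. libraries and 233 were under 1 FPKM in all 3 L.J. libraries, so more of the genes kept were near the limit of the table in busulfan plus L.J. The median FPKM of the tested genes was 6.51, 6.33 and 6.2 in the busulfan plus L.J. libraries, against 8.86, 7.73 and 11.2 in the L.J. libraries. The 10 most abundant genes held 11.1%, 11.1% and 13.6% of the summed FPKM in busulfan plus L.J., against 5.2%, 8.0% and 4.4% in L.J.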
